A study of Macaca fascicularis with 3 samples.

Results

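Among the barcodes of a single-nucleus RNA library from extraocular muscle (EOM), 585 of 16491 carried at least 2 UMIs (unique molecular identifiers, which tag single RNA molecules) summed over 6 neuronal genes. These genes were SNAP25, CELF4, STMN2, GAD2, NEFL and SYP, and the barcodes that met this rule are called neuronal barcodes. Of the 585, 355 held 500 to 2000 UMIs and 230 held more. The 355 were described against the other 5015 barcodes of the same library with 500 to 2000 UMIs. The questions were which kind of neuron the RNA resembled and how much myofibre RNA came with it.

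The tissue came from the cynomolgus macaque, Macaca fascicularis, and the labels give no treatment, genotype, age or number of animals. EOM moves the eye, and the series also holds nuclei from quadriceps femoris muscle (QFM) of the thigh and whole cells from EOM. There were 3 libraries, 1 in each group, with 37973 barcodes in all. Barcodes of 1 library are not replicates, so no test was made and no p-value is given. Intervals are given at 95% and hold counting error alone. The neuronal barcodes were chosen by measured values of the 6 genes, so the levels of those genes are a description of the choice.

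Neurons release transmitter from vesicles that fuse with the membrane through SNARE proteins such as SNAP25 and VAMP2. Inhibitory neurons make GABA with the glutamate decarboxylases GAD1 and GAD2 and load it into vesicles with the transporter SLC32A1, while excitatory neurons load glutamate with the SLC17A6, SLC17A7 or SLC17A8 transporters. The motor and sensory neurons that serve a muscle keep their nuclei in the brainstem or in ganglia, and the muscle itself holds their axons.

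In the range of 500 to 2000 UMIs, 6.61% of the 5370 EOM nuclei barcodes met the rule (5.96 to 7.31%, exact Clopper-Pearson interval). In QFM nuclei 0 of 821 barcodes of the same range met it, which allows a share of up to 0.365% (3 barcodes of the total; the Clopper-Pearson upper limit is 0.448%). In EOM whole cells 7 of 7537 did, or 0.0929%. Without a limit on depth the shares were 3.55% in EOM nuclei, 0.208% in QFM nuclei, with 26 of 12503 barcodes, and 0.111% in EOM cells, with 10 of 8979. The 26 QFM barcodes were deep, with a median of 7302.5 UMIs, and held 0 UMIs of GRIA2, DLX1, BCL11A and SYT1. EOM and QFM nuclei shared 51 barcodes, none of them among the 585.

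Each neuronal barcode held little RNA of the 6 genes. SNAP25, a SNARE protein of the presynaptic membrane, was seen in 71.3% of the 355 barcodes and CELF4, an RNA-binding protein of neurons, in 66.5%. GAD2 was seen in 25.6%, the synaptic vesicle protein SYP in 20.3%, the tubulin-binding protein STMN2 in 17.2% and the light neurofilament NEFL in 7.61%. The median sum was 3 UMIs and the highest 16. A single gene of the 6 supplied the UMIs in 81 barcodes, 2 genes did in 190, 3 in 62, and 4 or more in the other 22.

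The level of other genes moved in steps across the threshold. GRIA2, a subunit of the AMPA type of glutamate receptor, had 3665 CPM (counts per 1000000 UMIs of the summed barcodes) in the 156 barcodes with exactly 2 rule UMIs. It had 1947 CPM in the 379 barcodes with 1 and 136 CPM in the 4636 with 0. The homeobox factor MEIS2 had 2526, 1275 and 144 CPM in the same order.

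The barcodes grouped together when clustered on other genes. The 5370 barcodes were grouped into 18 clusters without the 6 rule genes, and 1 cluster of 737 barcodes held 332 of the 355 neuronal barcodes, or 93.5% (90.4 to 95.8%). GRIA2, MEIS2 and BCL11A were among its leading genes, and it is called the GRIA2 and MEIS2 cluster. The other 23 neuronal barcodes were spread over 11 clusters and made up 0.496% of the 4633 barcodes there. The GRIA2 and MEIS2 cluster also held 405 barcodes below the threshold, 202 with 1 rule UMI and 203 with none. These 405 were shallower, with a median of 738 UMIs, against 1009 UMIs in the neuronal barcodes. They stand on the side of the others in the ratios below. Some summaries are therefore also given against the 4610 others outside this cluster, a setting added after the data were seen. Log2 ratios of single named genes are given against all others of the range only.

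**Figure D1:**
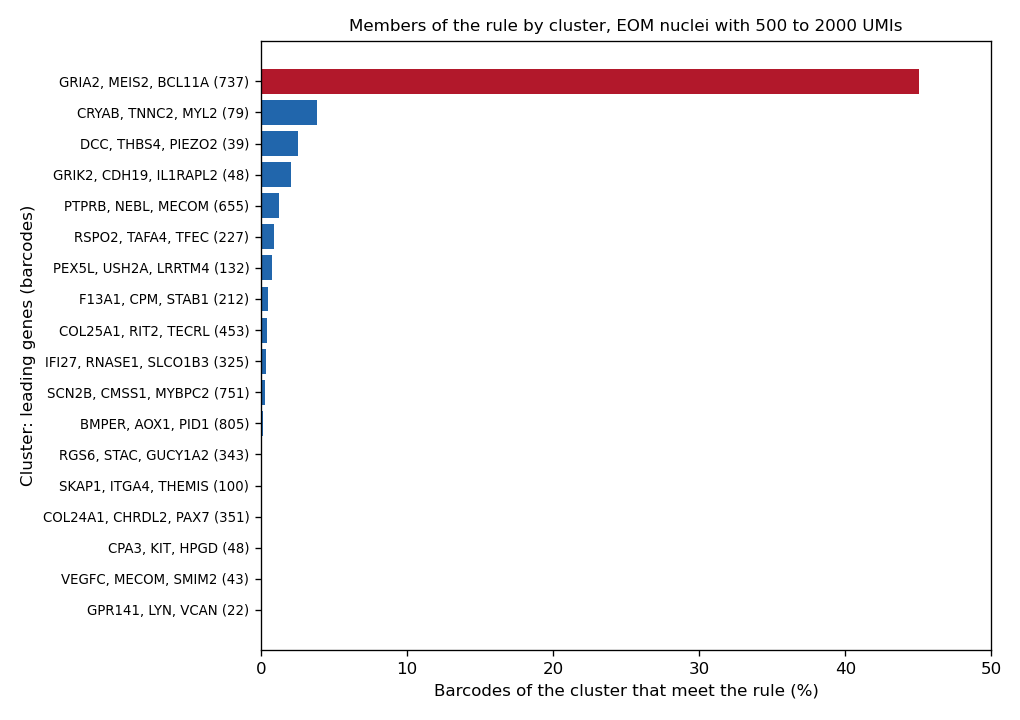
Share of barcodes that met the rule (horizontal axis, percent) in each of 18 clusters of EOM nuclei barcodes with 500 to 2000 UMIs, named by leading genes outside the rule, with the number of barcodes in brackets. The GRIA2 and MEIS2 cluster (red) stands at 45.0%, and the next at 3.80%.

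Over all genes, 7726 were measured, with a mean of both levels of at least 20 CPM and at least 20 counts. In the neuronal barcodes 949 of them (12.3%) were at least 2-fold higher and 1045 (13.5%) at least 2-fold lower than in the other barcodes. The median log2 ratio of all measured genes was −0.28, and with that median set to 0 the counts were 1238 higher and 471 lower. Against the others outside the GRIA2 and MEIS2 cluster, 12.8% of 7746 genes were higher and 14.8% lower. With all 585 neuronal barcodes summed, the 230 deep ones included, 157 genes were higher and 237 lower.

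The 25 genes of largest ratio, rule genes aside and among genes with at least 100 CPM and a UMI in at least 5% of the neuronal barcodes, lay between 3.54 and 4.50 on the log2 scale, and between 4.38 and 6.40 against the others outside the cluster. GRIA2 was seen in 90.7% of the neuronal barcodes and 11.8% of the others. A neuronal barcode held a median of 4 GRIA2 UMIs, with quartiles of 2 and 7 and a highest value of 18, while the median of the others was 0. Summed, this was 4209 CPM in the neuronal barcodes and 254 CPM in the others, a log2 ratio of 4.05 (3.95 to 4.15). Both groups overlapped: 9.30% of neuronal barcodes had no GRIA2 UMI, and the highest value among the others was 14 UMIs.

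Other receptor genes were among the 25. GRIA1, another AMPA receptor subunit, had 286 CPM in the neuronal barcodes and 18.5 CPM in the others. EPHA5, an ephrin receptor of axon guidance, had 112 and 7.56 CPM. Both genes were seen in a minority of neuronal barcodes, 23.1% for GRIA1 and 11.5% for EPHA5.

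Genes of vesicles and synapses were also among the 25. VAMP2, the vesicle partner of SNAP25, had 748 CPM in the neuronal barcodes and 64.2 CPM in the others and was seen in 49.3% of neuronal barcodes. NSG2, a neuronal trafficking protein, had 330 and 18.8 CPM, and the secretory granule protein SCG2 had 177 and 12.1 CPM. The syntaxin-binding protein STXBP5L, the endocytic adaptor PACSIN1, the postsynaptic protein DDN and the calcium-binding copine CPNE6 had 101 to 185 CPM in the neuronal barcodes and 6.92 to 10.1 CPM in the others.

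CALM2, a calmodulin gene, was seen in 88.5% of neuronal barcodes and 20.5% of the others, with 3047 and 260 CPM. PCP4, a small calmodulin-binding protein, had 322 and 17.2 CPM, and CAMK2N1, an inhibitor of calmodulin-dependent kinase II, 343 and 26.1 CPM.

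Transcription and chromatin factors were among the 25 as well. MEIS2 was seen in 82.0% of neuronal barcodes and 12.5% of the others. Its level was 2673 CPM in the neuronal barcodes and 218 CPM in the others, a log2 ratio of 3.62 (3.50 to 3.73). BCL11A, a zinc finger repressor, had 701 and 50.04 CPM, a log2 ratio of 3.81 (3.57 to 4.05). DLX1, a homeobox factor of forebrain GABA neurons, had 221 and 13.2 CPM, a log2 ratio of 4.06 (3.61 to 4.52). The chromatin remodeller CHD5 and the zinc finger factor SALL1 had 200 and 122 CPM in the neuronal barcodes, against 12.1 and 8.37 CPM in the others.

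Further members of the 25 were FBXL16, SLC4A10, SOGA3, HNRNPH2 and GPM6A. GPM6A, a membrane glycoprotein of neurons, had 696 CPM in the neuronal barcodes and 58.4 CPM in the others. FBXL16, an F-box protein, had the highest ratio of the 25, with 153 and 6.76 CPM.

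**Figure D2:**
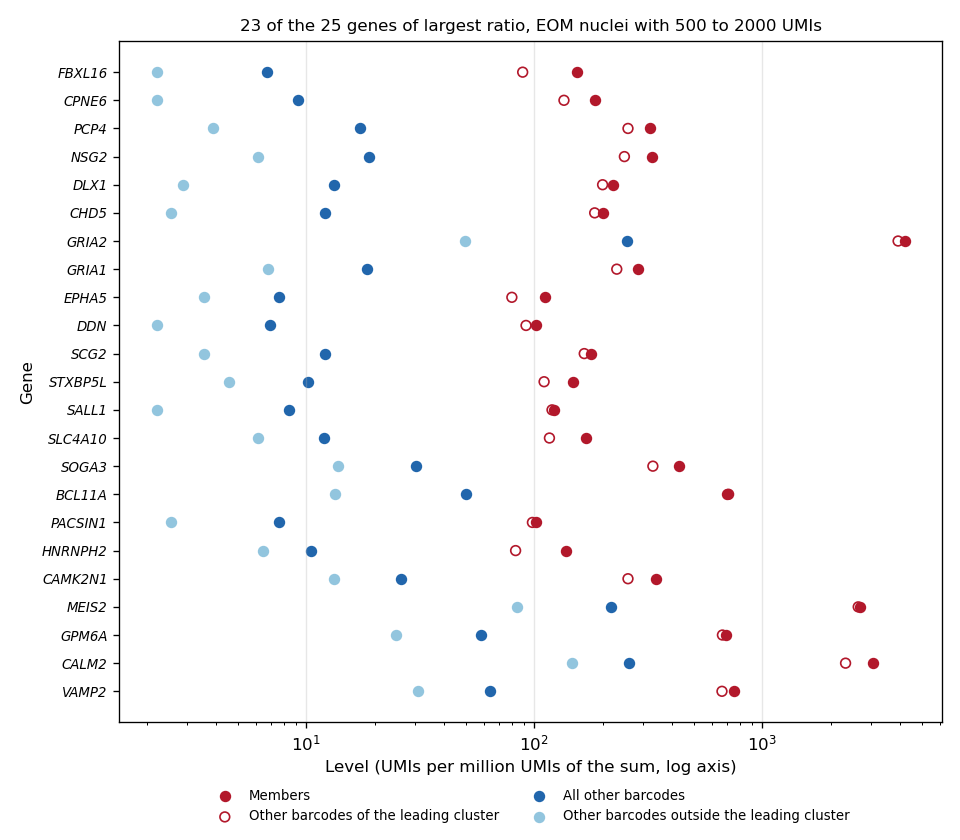
Level of 23 of the 25 genes of largest ratio (horizontal log axis, CPM of the summed barcodes) in the neuronal barcodes (members), in other barcodes of the GRIA2 and MEIS2 cluster, called the leading cluster in the key, in all other barcodes, and in other barcodes outside that cluster. The 405 other barcodes of the cluster lie close to the neuronal barcodes, as for MEIS2 at 2634 against 2673 CPM, and the 23 genes were lower in both remaining groups.

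The barcodes of the cluster below the threshold had levels near those of the neuronal barcodes. The 405 barcodes had 3941 CPM of GRIA2, against 4209 CPM in the neuronal barcodes, and 712 CPM of BCL11A, against 701 CPM. In the 4610 barcodes outside the cluster the levels were 49.9 CPM for GRIA2 and 13.4 CPM for BCL11A.

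The 12 genes of smallest ratio lay between −2.69 and −1.77. They included genes of other cell types of muscle. PTPRC, the common leukocyte antigen, had 26.0 CPM in the neuronal barcodes and 115 CPM in the others, ITGA4, an integrin of leukocytes, 15.6 and 101 CPM, and SKAP1, an adaptor of T cells, 26.0 and 104 CPM. The scavenger receptor SCARA5, which marks fibro-adipogenic stroma, had 33.8 and 144 CPM. The basement membrane collagen COL4A2 had 46.8 and 174 CPM, and the fibrillar collagen COL24A1 57.2 and 255 CPM. The other 6 were CLCN5, ANKRD44, ALDH1A2, ADAMTS12, XRCC4 and RBMS2.

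A gene could pass the measuring limit through the neuronal barcodes alone, so the counts of measured list members below are a description. Of 21 pan-neuronal genes with a symbol, rule genes aside, 12 were measured. All 12 were at least 2-fold higher in the neuronal barcodes, against 12.3% of all genes, with a median log2 ratio of 1.93. SYT1, the calcium sensor of vesicle release, is a marker of the label that the rule did not use. It had 572 CPM in the neuronal barcodes and 119 CPM in the others and was seen in 40.6% and 7.10% of them. SYT1 was not restricted to these barcodes: of its 4081 UMIs in the library, 15.95% lay in the neuronal barcodes or their cluster. Its highest count was 8 UMIs in a neuronal barcode and 29 UMIs in a barcode of the others. RBFOX3, a splicing factor of mature neurons, had 166 and 17.2 CPM. Of 21 genes of vesicle release 13 were measured, of which 10 were higher and 3 lay within 2-fold, with a median of 1.49. Of 11 genes of neuronal cytoskeleton and axon 9 were measured and 7 were higher, among them the microtubule protein DCX, with 65.0 and 3.38 CPM. MAPT, the microtubule protein tau, was not among them, with 169 and 162 CPM.

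Channel and receptor lists were mixed. The counts of this paragraph stand beside 12.3% of all measured genes. Of 17 sodium and potassium channel genes 13 were measured and 8 were higher, among them the potassium channel KCNA1, with 96.1 CPM in the neuronal barcodes and 7.72 CPM in the others, and 5 lay within 2-fold, with a median of 2.52. Of 12 glutamate receptor genes 11 were measured, of which 6 were higher and 5 lay within 2-fold, with a median of 1.24. GRIN1, the obligatory subunit of the NMDA receptor, had 93.5 and 5.15 CPM, while GRIN2A, another subunit, had 36.4 and 37.5 CPM. Of 11 GABA receptor genes 5 were measured and 4 were higher, and GABRG3 was not, with 85.7 and 92.5 CPM.

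For the kind of neuron, the GABAergic list had measured members and the glutamatergic list had none. Of the 9 GABAergic genes 7 were measured and 6 were at least 2-fold higher, against 12.3% of all measured genes, with a median log2 ratio of 3.50, and 5.16 against the others outside the cluster. GAD1 had 400 CPM in the neuronal barcodes and 51.5 CPM in the others, a log2 ratio of 2.96 (2.67 to 3.24). SLC32A1, the vesicular GABA transporter, had 72.7 and 6.44 CPM, a log2 ratio of 3.50 (2.75 to 4.23). The homeobox factors DLX5 and DLX6 had 46.8 CPM each in the neuronal barcodes and 3.86 and 3.70 CPM in the others. LHX6, a factor of interneurons born in the medial ganglionic eminence, had 44.2 and 50.9 CPM.

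A UMI of the GABAergic list, which does not hold the rule gene GAD2, was seen in 60.3% of the neuronal barcodes (55.0 to 65.4%) and in 16.5% of the others. The share in a cluster led by F13A1, MRC1 and STAB1, genes of macrophages, was 8.96%, at a median of 1261 UMIs against 1009 UMIs in the neuronal barcodes. After each barcode was thinned to 500 UMIs the shares were 37.2%, 8.57% and 2.36%. GAD1 by itself was not restricted to these barcodes: of its 2636 UMIs in the library, 15.2% lay in the neuronal barcodes or their cluster, against 65.4% of the 301 UMIs of DLX1 and 69.4% of the 157 UMIs of SALL1. The neuronal barcodes and their cluster made up 990 barcodes and 4.89% of all UMIs of the library.

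None of the 7 glutamatergic genes with a symbol was measured. SLC17A6 and SLC17A8 had 0 UMIs in the neuronal barcodes and in the others, so that 0 of 355 barcodes held one. This allows up to 0.845% of barcodes with such a UMI (3 of the total, with a Clopper-Pearson upper limit of 1.03%), and it sets no limit on barcodes that express the genes below detection at a median of 1009 UMIs. NEUROD6, FEZF2 and SLC30A3, genes of excitatory cortical neurons, were also at 0. SLC17A7, NEUROD2, TBR1 and EMX1 have no symbol in these tables and were not analysed here, so the main glutamate transporter of cortex was not among the genes read.

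Lists of other neuron kinds had few measured members. None of the 8 genes with a symbol on the motor or cholinergic list was measured, and 7 of them were at 0, among them CHAT, which makes acetylcholine, its vesicular transporter SLC18A3 and the motor neuron factor MNX1. None of 7 autonomic genes was measured. Of 3 measured genes of the somatosensory list all lay within 2-fold, and TRPV1, CALCA and POU4F1 were at 0. Of 16 photoreceptor genes none was measured and 14 were at 0. The retinal amacrine list had 2 measured genes, MEIS2 and PAX6, both higher, while its factors TFAP2A, TFAP2B and TFAP2C were at 0. The floor of 3 counts stands for 7.79 CPM in the neuronal barcodes, so genes below it were not detectable at this depth.

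Markers of regions and subclasses were sparse. Of 13 regional transcription factors with a symbol 9 were at 0. Among them were the hindbrain and spinal genes HOXA3, HOXA5 and HOXC9, the midbrain factors EN1 and EN2 and the forebrain factors NKX2-1 and OTX1. HOXA3, HOXA5, EN1 and EN2 had 0 UMIs in the others as well, so they do not set the groups apart. On the striatal list PENK, the precursor of enkephalin, had 70.1 CPM in the neuronal barcodes and 4.99 CPM in the others, but the dopamine receptors DRD1 and DRD2 were at 0. PDE10A, a phosphodiesterase of striatal projection neurons, had 83.1 and 211 CPM. On the cortical interneuron list CALB2, the calcium buffer calretinin, had 46.8 and 4.99 CPM, PVALB had 166 and 99.9 CPM, and VIP and LAMP5 were at 0. PAX6, a homeobox factor of forebrain, eye and cerebellum, had 75.3 and 5.63 CPM.

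Glial genes were mostly level. Of 6 measured astrocyte genes 1 was higher and 1 lower, and GFAP was at 0. Of the oligodendrocyte list MOBP, MOG, OPALIN, ERMN and CNP were at 0 in the neuronal barcodes and in the 405 other barcodes of the GRIA2 and MEIS2 cluster. On the Schwann list the sodium channel SCN7A was at least 2-fold lower, with 80.5 CPM in the neuronal barcodes and 202 CPM in the others, and SOX10 was at 0 in the neuronal barcodes.

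The other lists of neural cells had 3 measured genes at most. The neuropeptide list had PENK and SCG2, the cerebellar list ETV1 and the retinal ganglion list GAP43, a growth cone protein, all at least 2-fold higher in the neuronal barcodes. TCF7L2, the measured gene of the thalamus, midbrain and brainstem list, was lower, with 216 CPM in the neuronal barcodes and 437 CPM in the others. The retinal bipolar list had no measured gene, while the horizontal cell, Muller glia and oligodendrocyte precursor lists had 1 or 2, all within 2-fold. On the microglia list SALL1 was higher, APBB1IP lower and DOCK8 within 2-fold, and P2RY12, CX3CR1 and TMEM119 were at 0. The neuroendocrine list had the rule gene SYP, which was higher, and NCAM1, which lay within 2-fold.

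**Figure D3:**
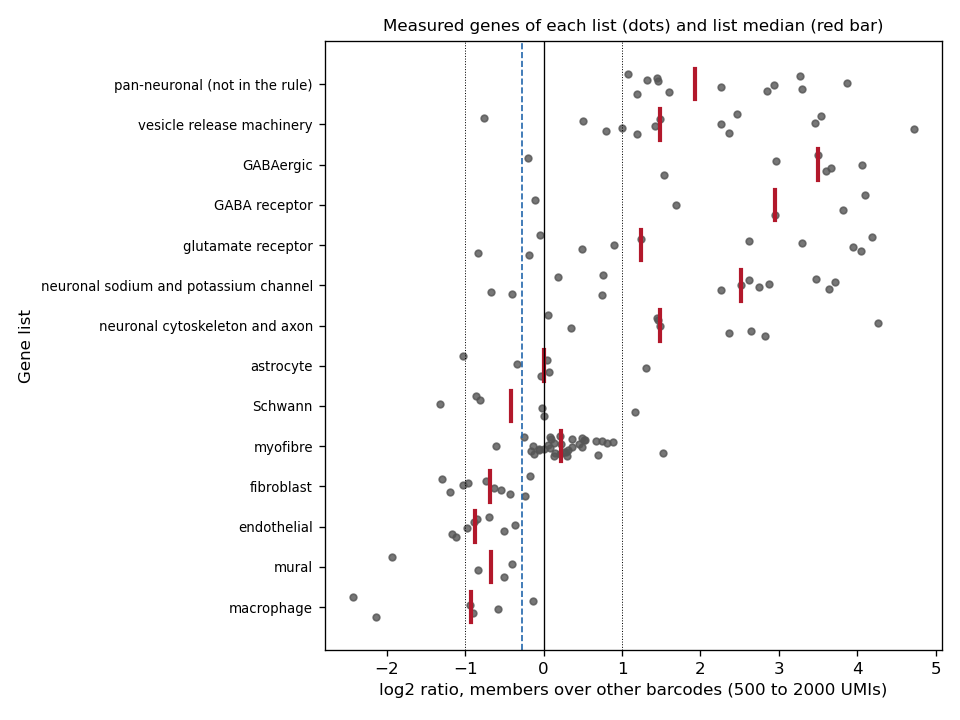
Log2 ratio of neuronal barcodes (members) over other barcodes with 500 to 2000 UMIs for each measured gene (dots) of 14 lists, with the list's median (red bar), the median of all measured genes at −0.28 (dashed) and the 2-fold limits (dotted). The GABAergic median stands at 3.50 and the pan-neuronal median at 1.93, while the myofibre median is 0.21 and the macrophage median −0.92.

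Myofibre RNA was present in every neuronal barcode, as it was in 5014 of the 5015 others and in all 212 barcodes of the cluster led by F13A1. The 37 myofibre genes with a symbol supplied 3.45% of the UMIs of the neuronal barcodes (3.39 to 3.51%) and 3.05% of those of the others (3.03 to 3.06%). Per barcode the median was 3.37% in the neuronal barcodes, with quartiles of 2.95 and 3.92%, and 3.02% in the others, with quartiles of 1.23 and 4.57%. The middle of the distribution was therefore narrower in the neuronal barcodes and lay inside that of the others. TTN, RYR1 and CKM are among 7 myofibre genes without a symbol here, so these shares do not hold them.

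Set beside the clusters, the neuronal barcodes lay below clusters led by muscle genes and above some, but not all, of the remaining clusters. The share was 9.08% in the cluster led by CRYAB, TNNC2 and MYL2, 5.66% in the cluster led by SCN2B and MYBPC2 and 4.84% in the one led by COL25A1, which also had MYH7 among its leading genes. It was 1.32% in the macrophage-gene cluster led by F13A1 and 1.18% in the cluster led by BMPER and SCARA5. Above the neuronal barcodes lay also the cluster led by PTPRB, NEBL and MECOM, at 4.06%, and the one led by PEX5L, at 4.18%. The lowest share of any cluster was 0.958%.

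**Figure D4:**
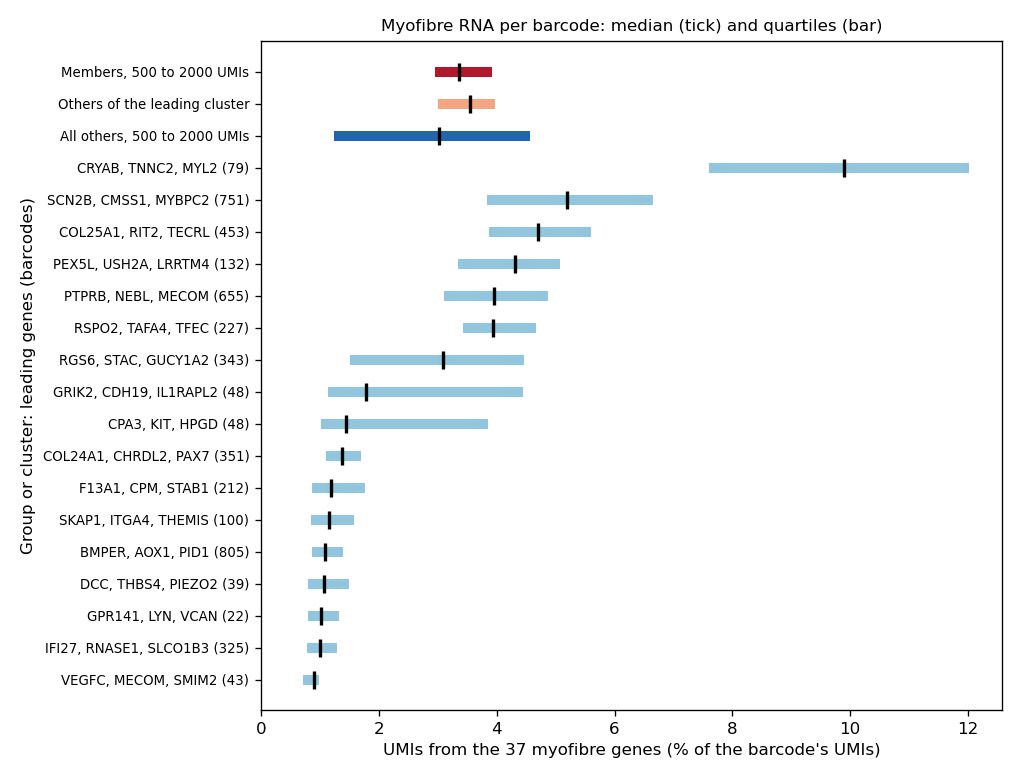
Share of a barcode's UMIs from 37 myofibre genes (horizontal axis, percent), as median (tick) and quartiles (bar), in neuronal barcodes (members), other barcodes of the GRIA2 and MEIS2 cluster (others of the leading cluster), all other barcodes and each remaining cluster, named by leading genes with the number of barcodes. The neuronal barcodes have a median of 3.37%, below the clusters led by CRYAB or SCN2B and above the cluster led by F13A1.

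Gene by gene the myofibre list was near level. Of 35 measured genes 34 lay within 2-fold, with a median log2 ratio of 0.21. MYH13, the fast myosin of EOM, had a median of 6 UMIs in a neuronal barcode, with quartiles of 4 and 8, and a median of 4 in the others, with quartiles of 2 and 7. Only 0.563% of neuronal barcodes and 5.96% of the others had no MYH13 UMI. Its level was 5832 CPM in the neuronal barcodes and 4521 CPM in the others, a log2 ratio of 0.37 (0.30 to 0.43). The muscle myosin MYH15 had 1600 and 1449 CPM, and DMD, which codes for dystrophin, 5175 and 5385 CPM.

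TNNC1, the troponin C of slow fibres, was the gene beyond 2-fold, with 182 CPM in the neuronal barcodes and 63.1 CPM in the others. The 405 other barcodes of the GRIA2 and MEIS2 cluster had 76.7 CPM of TNNC1. The cluster led by CRYAB, which has TNNC1 among its leading genes, held 3 neuronal barcodes. As parts of the myofibre UMIs, MYH13 made up 16.9% in the neuronal barcodes and 14.8% in the others, DMD 14.99% and 17.7%, and the fast troponin TNNT3 7.28% and 4.92%. TNNC1 made up 0.527% and 0.207%.

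RNA of other muscle cell types was lower in the neuronal barcodes than in the others. The others hold the clusters led by genes of such cells, as F13A1 or SCARA5, so this comparison depends on their make-up. The fibroblast list summed to 1174 CPM in the neuronal barcodes and 2095 CPM in the others, with 3 of 10 genes at least 2-fold lower. The endothelial list summed to 733 and 1281 CPM, with 2 of 8 lower, and the macrophage list to 348 and 686 CPM, with 2 of 6 lower. The measured genes of the T cell and satellite cell lists, SKAP1 and PAX7, were lower, as was 1 of 4 mural genes, MYH11. DCN, a proteoglycan of stroma, had 429 and 667 CPM, and the macrophage receptor MRC1 12.99 and 70.3 CPM. Of all measured genes 13.5% were lower by this measure.

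The share of mitochondrial UMIs differed alongside these levels. Its median was 1.62% in the neuronal barcodes, 1.90% in the other 405 barcodes of their cluster and 0.876% in all others of the range. Doublets called by Scrublet, which were kept here, made up 3.38% of the neuronal barcodes and 15.7% of the others. Of the 23 neuronal barcodes outside the cluster 8 were called doublets. The part of mitochondrial share and depth in the gene ratios was not tested. With called doublets removed the median log2 ratio of the pan-neuronal list was 2.23.

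Within the 355 neuronal barcodes some genes differed little by the number of rule genes and others more. The 81 barcodes with 1 rule gene had 3976 CPM of GRIA2, the 190 with 2 had 4194 CPM and the 84 with 3 or more had 4413 CPM. MEIS2 had 2840, 2595 and 2691 CPM in the same order. SCG2 had 185, 126 and 263 CPM, and DCX 61.7, 80.9 and 37.6 CPM. Barcodes of 500 to 1000 UMIs had 441 CPM of GAD1 and those of 1001 to 2000 UMIs 377 CPM, while PENK had 29.4 and 92.4 CPM in the same order. GAD1 was seen in 34.1% of the 91 neuronal barcodes with a GAD2 UMI (24.5 to 44.7%) and in 31.4% of the 264 without (25.9 to 37.4%), intervals that overlap.

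The 230 neuronal barcodes over 2000 UMIs had a median of 4469.5 UMIs. They held about as many UMIs per barcode of MEIS2, DLX1 and BCL11A as the shallower ones, and more of GRIA2, CALM2, SYT1, GAD1 and VAMP2. GRIA2 had a mean of 5.33 UMIs per barcode in the deep neuronal barcodes, 4.56 in the 355 shallower ones and 0.146 in deep barcodes outside the rule. MEIS2 had 2.76, 2.90 and 0.152, and DLX1 0.204, 0.239 and 0.00799 UMIs per barcode. CALM2 had 5.44, 3.30 and 0.513, SYT1 1.15, 0.620 and 0.263, and GAD1 0.657, 0.434 and 0.185 in the same order. A GRIA2 UMI was seen in 72.6% of the deep neuronal barcodes and 90.7% of the shallower ones. In CPM the deep neuronal barcodes were lower, with 533 CPM of GRIA2 against 4209 CPM in the shallower ones. Their myofibre share was 4.95%, against 5.25% in deep barcodes outside the rule. Of the deep neuronal barcodes 33.5% were called doublets, against 14.9% of the other deep barcodes.

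**Figure D5:**
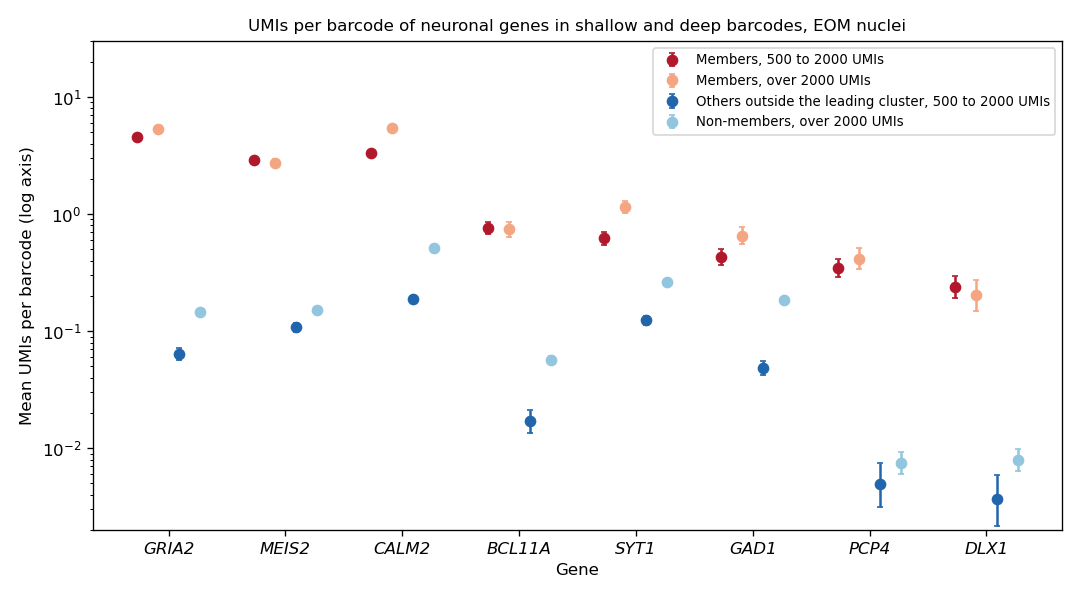
Mean UMIs per barcode (vertical log axis, bars are exact Poisson 95% intervals of the summed counts) of 8 neuronal genes in neuronal barcodes (members) of 500 to 2000 UMIs and over 2000 UMIs, in other barcodes of 500 to 2000 UMIs outside the GRIA2 and MEIS2 cluster (leading cluster in the key) and in deep barcodes outside the rule. GRIA2 stands at 4.56 and 5.33 UMIs in the shallower and deep neuronal barcodes and at 0.146 in deep barcodes outside the rule.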

How the data were processed

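Single-nucleus RNA of EOM and QFM and single-cell RNA of EOM were measured in 3 libraries, grouped by their titles. The authors deposited raw counts of UMIs for each gene in each barcode. Per the file headers, Cell Ranger 7.2.0 wrote both nuclei matrices, and the submitters' processing notes also name Seurat 5.2.1. The build, the annotation and the use of intronic reads are not given in the sources. The QFM title says nuclei while its file names say cells, which bears on the values given for that library. The nuclei matrices list 38550 features, of which 22005 carry a symbol; of 393 listed genes 44 had none and were not analysed here.

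CPM is a gene's summed count over a group of barcodes per 1000000 of that group's UMIs. Log2 ratios have conditional exact binomial, sums exact Poisson and shares Clopper-Pearson intervals. A count of 0 was taken as 3, and no fold is given where both sums were at or below 3. The script was tested on simulated data. Barcodes of 500 to 2000 UMIs were clustered without the rule genes (counts scaled and log-transformed, 2000 variable genes, 30 components, 15 neighbours, Leiden resolution 1, seed 1; scanpy 1.11.5). Scrublet used an expected rate of 6%, after leaving out barcodes under 200 genes or over 10% mitochondrial UMIs. The text names the 25 largest and 12 smallest ratios with a symbol and at least 100 CPM in the higher sum, the largest also with a UMI in at least 5% of the neuronal barcodes, without rule genes, mitochondrial transcripts and genes of ribosomal proteins. Named besides are the rule genes, transmitter genes and up to 5 measured members by level of each of 36 lists. DCX, KCNA1, GRIN1, GRIN2A, MYH15, TNNC1, MRC1, CNP and the listed genes at 0 were named after their values were seen. A few genes that this rule chooses are not reported here. The members, lists and rules were chosen with earlier results of these data known.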

Additional observations from a re-analysis of the deposited data

How the results depend on the processing

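Levels rest on 384919 UMIs in the neuronal barcodes and 6214822 in the others, so genes under a mean of 20 CPM were given no call and are named only as at 0 or by their UMIs. Lists are given as median log2 ratios, which were 1.93 (pan-neuronal), 3.50 (GABAergic) and 0.21 (myofibre), each positive under every alternative run. No paired analysis was possible because each group is 1 library. The cause of the changes below was not tested. Of 43 named genes at least 2-fold apart, 0 changed sign under the alternatives run, while LHX6, within 2-fold, did.

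With neuronal barcodes of any depth, 157 genes were higher and 237 lower, the medians were 0.60, 0.68 and 0.58, the myofibre share of the neuronal barcodes was 4.73%, and 3.55% of EOM nuclei barcodes met the rule. Measured at a mean of 5 CPM, 1439 genes were higher and 2201 lower, with medians of 2.56, 3.23 and 0.25. At 50 CPM, 588 were higher and 505 lower, with a pan-neuronal median of 2.27 and a GABAergic median of 2.96. With the median of all genes set to 0, 471 genes were lower and the medians were 2.21, 3.77 and 0.49.

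With at least 3 rule UMIs the pan-neuronal median was 2.13, the myofibre median 0.073 and the myofibre share 3.36%. This stricter rule was met by 3.71% of EOM nuclei and 0.0133% of EOM cells in the range. With at least 2 rule genes the pan-neuronal median was 2.24 and the myofibre median 0.15. Without SNAP25 in the rule the GABAergic median was 2.94, the myofibre median 0.13 and the myofibre share 3.39%. Without CELF4 the medians were 1.69, 2.88 and 0.13. The GABAergic and myofibre medians were 3.25 and 0.16 without STMN2, and 3.27 and 0.15 without GAD2. Without SYP the myofibre median was 0.28.

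With called doublets removed the pan-neuronal median was 2.23, the myofibre median 0.34 and the myofibre share of the others 2.84%. As a mean over barcodes the medians were 2.08, 2.86 and 0.15. Thinned to 500 UMIs, 37.2% of neuronal barcodes had a GABAergic UMI and the myofibre share of the others was 3.19%. In the range of 500 to 1000 UMIs 8.90% of EOM nuclei barcodes met the rule. In the alternatives chosen after seeing the data, the others outside the GRIA2 and MEIS2 cluster gave medians of 2.12 (pan-neuronal) and 5.16 (GABAergic) and a myofibre share of 3.02% in those others. The neuronal barcodes of the cluster alone gave 2.31 (pan-neuronal) and 0.26 (myofibre).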

Other observations

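A list of 15 genes known in mouse from interneurons of the olfactory bulb was written after values of these barcodes had been seen, so its values are a description only. Of 14 genes with a symbol 8 were measured, and all 8 were at least 2-fold higher in the neuronal barcodes, against 12.3% of all measured genes, with a median log2 ratio of 3.42. The homeobox factor PBX3 was seen in 76.3% of the neuronal barcodes and 19.7% of the others, with 1935 CPM in the neuronal barcodes and 258 CPM in the others. The zinc finger factor TSHZ1 had 281 and 112 CPM, and ETV1, an ETS factor, 90.9 and 39.1 CPM. The other 5 were MEIS2, SALL1, PAX6, PENK and CALB2. SP8, VAX1 and PROKR2, which the same list holds, had 0 UMIs in the neuronal barcodes, and TH, which makes dopamine, had 1. Several of these genes are also known from neurons of other regions, and the list does not tell such regions apart.

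The genes differed in how far they were seen outside the EOM nuclei library, and the libraries differ in depth and, for the cells, in annotation. SALL1 had 157 UMIs among EOM nuclei, against 0 among QFM nuclei and 5 in the cell library. DLX1, which is not on the list, had 301, 3 and 5 UMIs in the same order. MEIS2 had 4673 UMIs among EOM nuclei and 2140 among QFM nuclei, and the GABA enzyme GAD1, also not on the list, 2636 and 1378.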
